A study of Mus musculus with 29 samples.

Results

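The lipid droplet and lipolysis genes followed here were Pnpla2, Abhd5, G0s2, Hilpda, Plin2, Plin3, Plin4, Plin5, Dgat1 and Dgat2, in tibialis anterior (TA) muscle of mice that lacked p110α or p110β in muscle and of their controls. Members were the rows of the deposited counts table whose Ensembl IDs map to these symbols. All 10 were found among the 48023 genes of the table, and all 10 had enough counts to be tested in each line, where 12433 (p110α line) and 12249 (p110β line) genes were tested.

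A lipid droplet is a store of triglyceride inside a cell, wrapped in a single layer of phospholipid and coated with proteins. Triglyceride is made by the acyltransferases DGAT1 and DGAT2 and is broken down first by adipose triglyceride lipase (ATGL, encoded by Pnpla2), which is switched on by its co-activator CGI-58 (Abhd5) and held back by G0S2 and HILPDA. Perilipins coat the droplet and control the access of lipases to it, and in skeletal muscle the droplets lie close to mitochondria, which burn the released fatty acids during fasting and exercise. p110α and p110β are catalytic subunits of the class I PI3-kinases that carry the insulin signal.

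RNA came from male mice labelled C57BL/6J, aged 2 to 3 months. In the p110α line the knockout (M-p110αKO) carried floxed p110α alleles, with exon 1 flanked by loxP sites, and a Cre under the promoter of human skeletal α-actin (HSA), which acts in muscle fibres and not in the other cells of the muscle. M-p110βKO carried the same Cre with floxed p110β alleles, in which exon 2 is flanked. The labels call the controls WT, and the study describes them as floxed mice of the same line. Mice were randomly fed or fasted for 24 h. The p110α line gave 4 fed controls (libraries 1 to 4), 4 fed M-p110αKO (5 to 8), 4 fasted controls (9 to 12) and 3 fasted M-p110αKO (13 to 15). The p110β line gave 3 fed controls (16 to 18), 4 fed M-p110βKO (19 to 22), 3 fasted controls (23 to 25) and 4 fasted M-p110βKO (26 to 29). The study's supplement describes the p110α line as closer to pure C57BL/6 in genetic background, so line, background and floxed gene cannot be told apart between lines. The labels do not say that libraries come from separate mice, so p-values measure the spread between these libraries.

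Assigned reads per library ranged from 5351935 to 11653239. Levels are CPM, counts divided by library sizes that were scaled with TMM factors over all 29 libraries. Fold changes are on the log2 scale with their SE, and a gene was called at a Benjamini-Hochberg adjusted p under 0.05 in the quasi-likelihood F test of edgeR. The study reported less p110α mRNA and protein in muscle of M-p110αKO and less p110β mRNA in M-p110βKO. Counts over whole genes do not check the deletion of 1 exon, and no such fall is seen in them. Pik3ca, which encodes p110α, read 106–163 CPM in the fed knockout of p110α and 103–150 in its fed controls. Fasted, it read 158–186 and 171–191. Pik3cb read 9.51–11.7 in fed M-p110βKO and 9.96–10.7 in fed controls, and 9.34–10.2 and 8.62–10.2 when fasted. Summed markers of muscle fibres were 93400–134000 CPM in every library. Libraries 23 and 24, both fasted controls of the p110β line, stood apart by adipocyte transcripts: 9 adipocyte markers (leaving out Fabp4 and Thrsp, which were detected in all 29) summed to 158 and 155 CPM there and to 0.241–20.5 in the other 27. All 9 were detected in both, with Adipoq at 19.0 and 24.6 CPM against 0–3.89 elsewhere. Cidea in library 24 (0.254 CPM) lay within the range of the other 27 (0–0.789). Of the genes left out, Fabp4 was higher in libraries 23 and 24 (237 and 278 against 87.6–197). Thrsp was not (20.0 and 16.5 against 9.67–26.3). The highest sum of the other 27 was that of library 10, a fasted control of the p110α line. Fold changes that use the fasted controls of the p110β line are therefore also given without both, which leaves library 25 alone in that group, assumed to vary like the other groups. Library 25 stood apart in another way: 3 slow fibre markers (Myh7, Tnnt1 and Tnni1) summed to 58.4 CPM there, against 8.24 and 9.27 in libraries 23 and 24 and 2.85–34.9 in the other 26, so every value without 23 and 24 rests on a library of this kind.

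The promoters of the lipase gene Pnpla2, of its inhibitor genes G0s2 and Hilpda and of Plin5 are shown first, since the results turn on how these genes moved on fasting. Pnpla2, Plin5 and Dgat2 were called higher on fasting in 4 of 4 comparisons, and G0s2 and Hilpda were called lower in 3 of 4. In these comparisons 11.6% to 19% of all genes tested were called higher and 9.91% to 18.9% lower. RefSeq promoter sequences (GRCm38.p6, 250 bases before to 50 bases after the start) matched 8 of the 10 members, all but Dgat1 and Dgat2. Capitals mark GGGCGG (a GC box) or AGGTCA (a nuclear receptor half-site) on either strand, and each sequence reads 5′ to 3′ on the strand of the gene. The windows are chr7:141454938-141455237 on the plus strand for Pnpla2, chr17:56117499-56117798 on the minus strand for Plin5, chr1:193273139-193273438 on the minus strand for G0s2 and chr6:29272238-29272537 on the plus strand for Hilpda.
Pnpla2: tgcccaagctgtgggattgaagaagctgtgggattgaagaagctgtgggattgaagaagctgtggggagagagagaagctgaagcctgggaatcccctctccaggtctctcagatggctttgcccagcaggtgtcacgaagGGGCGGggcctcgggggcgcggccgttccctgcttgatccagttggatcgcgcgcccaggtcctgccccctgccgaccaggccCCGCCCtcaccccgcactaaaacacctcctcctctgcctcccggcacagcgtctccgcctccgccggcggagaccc
Plin5: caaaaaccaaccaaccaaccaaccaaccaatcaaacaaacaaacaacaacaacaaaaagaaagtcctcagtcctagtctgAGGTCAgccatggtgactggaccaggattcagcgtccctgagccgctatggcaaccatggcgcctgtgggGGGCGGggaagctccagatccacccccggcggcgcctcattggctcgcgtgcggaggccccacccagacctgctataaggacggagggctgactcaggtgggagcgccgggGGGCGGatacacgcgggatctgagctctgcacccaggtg
G0s2: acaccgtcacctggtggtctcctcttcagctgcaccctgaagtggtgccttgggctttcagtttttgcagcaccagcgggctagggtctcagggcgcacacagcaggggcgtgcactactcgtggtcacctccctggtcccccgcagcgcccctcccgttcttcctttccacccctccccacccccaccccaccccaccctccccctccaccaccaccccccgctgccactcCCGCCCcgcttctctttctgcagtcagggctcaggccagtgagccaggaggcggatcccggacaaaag
Hilpda: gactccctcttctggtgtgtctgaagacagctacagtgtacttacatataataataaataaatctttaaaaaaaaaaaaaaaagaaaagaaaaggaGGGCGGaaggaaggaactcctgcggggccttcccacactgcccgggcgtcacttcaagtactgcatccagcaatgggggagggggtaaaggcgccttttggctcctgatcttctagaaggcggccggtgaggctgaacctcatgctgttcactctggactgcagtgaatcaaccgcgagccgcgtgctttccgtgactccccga

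GGGCGG was present in 7 of the 8 member promoters and in 35.7% of the 32851 promoters of the same length. AGGTCA was in 3 of 8 (Plin2, Plin5 and Abhd5) and in 16.3% of all. The FoxO letters GTAAACA were in 0 of 8 and in 3.65% of all, the glucocorticoid half-site AGAACA in 0 of 8 and in 19% of all, and TATAAA in 0 of 8 and in 13.6% of all. CACGTG was in 1 of 8, the Plin2 promoter, and in 7.15% of all, and its inner letters ACGTG were in the same single promoter and in 19.6% of all. Of the 4 promoters printed, those of Pnpla2 and Plin5 held 2 GC boxes each and those of G0s2 and Hilpda held 1 each. These matches describe letters in a short window and say nothing about binding.

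The genes lie on 7 chromosomes of GRCm38. Plin4 (ENSMUSG00000002831, chr17:56100591-56109803) and Plin5 (ENSMUSG00000011305, chr17:56111601-56117596) are neighbours on the minus strand, 1797 bases apart, and Plin3 (ENSMUSG00000024197, chr17:56277476-56292873) is on the same chromosome. G0s2 (ENSMUSG00000009633) lies inside Lamb3 on the opposite strand and shares 0 exon bases with it. Abhd5 (ENSMUSG00000032540) shares 950 exon bases with the antisense gene A730085K08Rik, which had 0–2 counts per library, and without the strand setting reads of the pair cannot be told apart. Of the 50-base windows of the longest Abhd5 transcript, 29% also occur, on either strand, in transcripts of another gene. This share counts the windows of the antisense overlap and is not a separate limit. The counts of Abhd5 are uncertain for this reason. The same share was 4.89% for Plin2, 1.25% for Plin3 and 0% for the other members, while 17.4% of the Plin4 windows repeat within Plin4 itself.

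In the 7 fed controls of both lines, Pnpla2 and Plin4 stood far above the other members. Per kilobase of summed exons, Pnpla2 read 59.5 ± 11.7 CPM (SD, n = 7) and Plin4 58.5 ± 36.3, and the range of Plin4, 16.6–129, covered that of Pnpla2, 46.2–76.3. Next on the per-kilobase scale came Abhd5 (8.03 ± 1.79), Plin2 (7.92 ± 1.02), Dgat2 (7.30 ± 2.30) and Plin5 (6.38 ± 2.02), whose ranges overlap one another. G0s2 (4.44 ± 1.72), Plin3 (3.73 ± 1.39) and Dgat1 (3.58 ± 0.332) followed, again with overlapping ranges, and Hilpda was lowest at 1.89 ± 0.773. The order was not the same in each line. Plin4 read 76.4 ± 38.1 and Pnpla2 55.6 ± 11.8 CPM per kilobase in the p110α line (n = 4), and 34.7 ± 16.7 and 64.7 ± 11.4 in the p110β line (n = 3). G0s2 was at 3.45 ± 1.67 in the p110α line, below Plin3 (4.16 ± 1.70) and Dgat1 (3.5 ± 0.40), and at 5.77 ± 0.299 in the p110β line, above Dgat2 (5.67 ± 1.07) and Plin5 (5.14 ± 1.41), each with ranges that overlap its own. Hilpda gave 5–30 counts and G0s2 2–114 counts per library, against 821–5196 for Pnpla2, so the values of the first 2 genes are the least precise. Plin4 made up most of the perilipin transcripts: of the summed per-kilobase levels of Plin2, Plin3, Plin4 and Plin5 it held 77.5 ± 5.36% in fed controls of the p110α line (n = 4) and 67.2 ± 8.75% in those of the p110β line (n = 3).

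**Figure D1:**
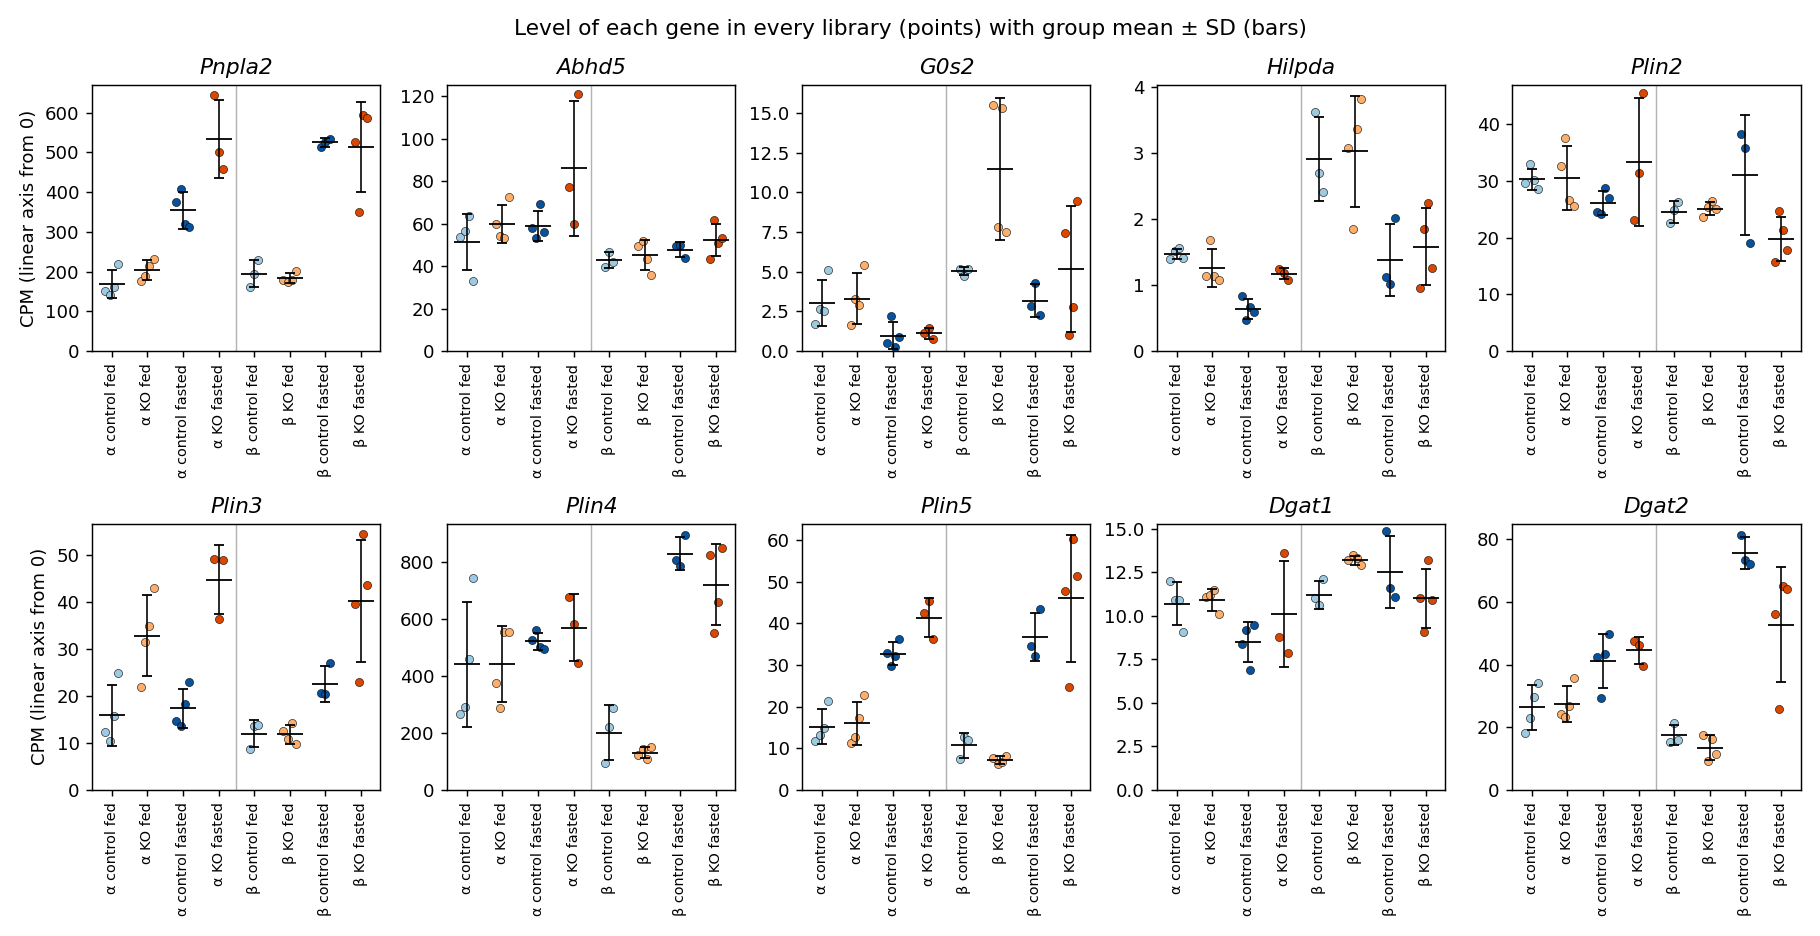
CPM (linear axes from 0) of each of the 10 genes in every library (points), by group, with the mean and SD of the group (bars), for the p110α line (left of the grey line) and the p110β line (right). Pnpla2 and Plin5 sit higher in fasted than in fed libraries of both lines, without overlap within a line and genotype.

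On fasting the lipase gene Pnpla2 was called higher in 4 of 4 comparisons, and G0s2 and Hilpda, the genes of its inhibitors, lower in 3 of 4 each. Of all genes tested, 11.6% to 19% were called higher and 9.91% to 18.9% lower in these comparisons. Each lower call of G0s2 and Hilpda was lost in 1 to 11 of 21 other settings. Pnpla2 read 152, 140, 160 and 220 CPM in fed controls of the p110α line, against 376, 408, 319 and 311 in fasted controls. Fed M-p110αKO read 177, 189, 214 and 232 CPM and fasted M-p110αKO 644, 502 and 457. In the p110β line it read 162, 194 and 230 CPM in fed controls, 513, 527 and 534 in fasted controls, 180, 173, 178 and 201 in fed M-p110βKO, and 527, 351, 593 and 586 in fasted M-p110βKO. Fed and fasted libraries did not overlap in any of the 4 pairs of groups. The log2 fold changes were 1.07 ± 0.15 in controls of the p110α line (adjusted p = 4.36e-05), 1.40 ± 0.16 in M-p110αKO (1.16e-05), 1.44 ± 0.17 in controls of the p110β line (adjusted p = 5.53e-06) and 1.49 ± 0.14 in M-p110βKO (4.92e-07). All 4 calls held in each of the 21 other settings and left-out libraries of their line, and the third was 1.46 ± 0.22 (adjusted p = 0.00028) without libraries 23 and 24.

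G0s2, whose product binds ATGL and blocks it, fell on fasting in controls of the p110α line and in both knockouts. It read 1.73, 2.66, 2.53 and 5.09 CPM in fed controls of the p110α line, against 0.517, 2.18, 0.266 and 0.888 in fasted controls, with 1 fasted library inside the fed range. Fed M-p110αKO read 1.63, 3.27, 2.93 and 5.43 CPM and fasted M-p110αKO 1.12, 1.45 and 0.769, without overlap. In the p110β line it read 5.19, 4.73 and 5.16 CPM in fed controls, 2.87, 4.32 and 2.30 in fasted controls, 15.5, 7.83, 15.3 and 7.48 in fed M-p110βKO, and 7.47, 0.983, 2.77 and 9.47 in fasted M-p110βKO. The log2 change was −1.60 ± 0.49 (adjusted p = 0.0191) in controls of the p110α line, −1.57 ± 0.54 (0.0461) in M-p110αKO, −0.65 ± 0.53 (0.389) in controls of the p110β line and −1.21 ± 0.41 (0.0267) in M-p110βKO. In controls of the p110β line it was −1.11 ± 0.86 (adjusted p = 0.41) without libraries 23 and 24. At 2–114 counts per library these calls were not steady: without library 4, 9 or 11 the first one missed the threshold (adjusted p = 0.104, 0.0612 and 0.0526), the second was lost in 11 of 21 other settings (limma-voom, a correction for GC and exon length, and without library 2, 3, 6, 7, 8, 12, 13, 14 or 15, at adjusted p up to 0.132) and the last in 6 (DESeq2, the same correction, and without library 19, 21, 27 or 28, up to 0.0876).

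Hilpda, a small droplet protein induced by hypoxia and fatty acids that also inhibits ATGL, fell on fasting in controls of both lines and in M-p110βKO. It read 1.40, 1.52, 1.56 and 1.41 CPM in fed controls of the p110α line, against 0.828, 0.475, 0.664 and 0.592 in fasted controls, a log2 change of −1.19 ± 0.29 (adjusted p = 0.00547). M-p110αKO read 1.13, 1.68, 1.13 and 1.07 CPM when fed and 1.24, 1.18 and 1.08 when fasted, a change of −0.10 ± 0.30 (0.859) whose sign turned with the GC and length correction (0.05) and without library 6 (0.08). Fed controls of the p110β line read 3.62, 2.70 and 2.40 CPM and fasted ones 1.12, 1.02 and 2.01, a change of −1.08 ± 0.37 (adjusted p = 0.0385) that was −0.52 ± 0.51 (0.53) without libraries 23 and 24. M-p110βKO read 3.07, 1.85, 3.36 and 3.81 CPM when fed and 0.953, 1.84, 2.24 and 1.26 when fasted, with 1 fed library inside the fasted range and a change of −0.91 ± 0.32 (0.0304). The counts behind these values were 5–30 per library, and the call in controls of the p110α line was lost in 1 of 21 other settings, a filter of 1 read in all (adjusted p = 0.0508). The p110β line lost its calls in 7 (controls) and 6 (M-p110βKO) of 21. Those for controls were DESeq2, the GC and length correction, and the omission of library 16, 17, 23 or 24 or of the last 2 together (adjusted p up to 0.53), and those for M-p110βKO the correction and the omission of library 19, 21, 22, 26 or 29 (up to 0.10). The difference between the fasting responses of M-p110αKO and controls was 1.09 ± 0.42 (adjusted p = 0.267).

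Abhd5, the co-activator of ATGL, was called in 0 of the 4 comparisons of fasting. Fed controls of the p110α line read 53.6, 56.4, 63.5 and 32.8 CPM and fasted controls 57.9, 53.2, 69.2 and 56.1. Fed M-p110αKO read 60.0, 54.0, 53.1 and 72.6 CPM and fasted M-p110αKO 77.1, 59.7 and 121, a log2 change of 0.52 ± 0.21 (adjusted p = 0.0898). It passed the threshold in 3 of 21 other settings, among them those without library 4 (0.52, adjusted p = 0.0463) and without library 14 (0.72, 0.0273). Over both genotypes of the p110β line all 14 libraries lay between 35.9 and 61.9 CPM.

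Set against each other per kilobase, G0s2 amounted to 6.02 ± 1.74 per 100 of Pnpla2 in fed controls of the p110α line (n = 4) and to 0.904 ± 0.703 in fasted controls (n = 4). In M-p110αKO the ratio was 5.51 ± 2.07 fed (n = 4) and 0.728 ± 0.236 fasted (n = 3). In the p110β line it was 9.10 ± 1.76 in fed and 2.09 ± 0.687 in fasted controls (n = 3 each), and 22.1 ± 9.05 in fed and 3.28 ± 2.32 in fasted M-p110βKO (n = 4 each). In each line and genotype the highest fasted library lay below the lowest fed one, and library 25 alone had a ratio of 1.49. Pnpla2 itself rose without overlap in each pair of groups, so the ratio falls in part through Pnpla2 and is not separate evidence on G0s2. Fed and fasted levels of G0s2 alone overlapped in controls of the p110α line and in M-p110βKO. In controls of the p110β line G0s2 was not called (−0.65 ± 0.53, adjusted p = 0.389 in edgeR).

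**Figure D2:**
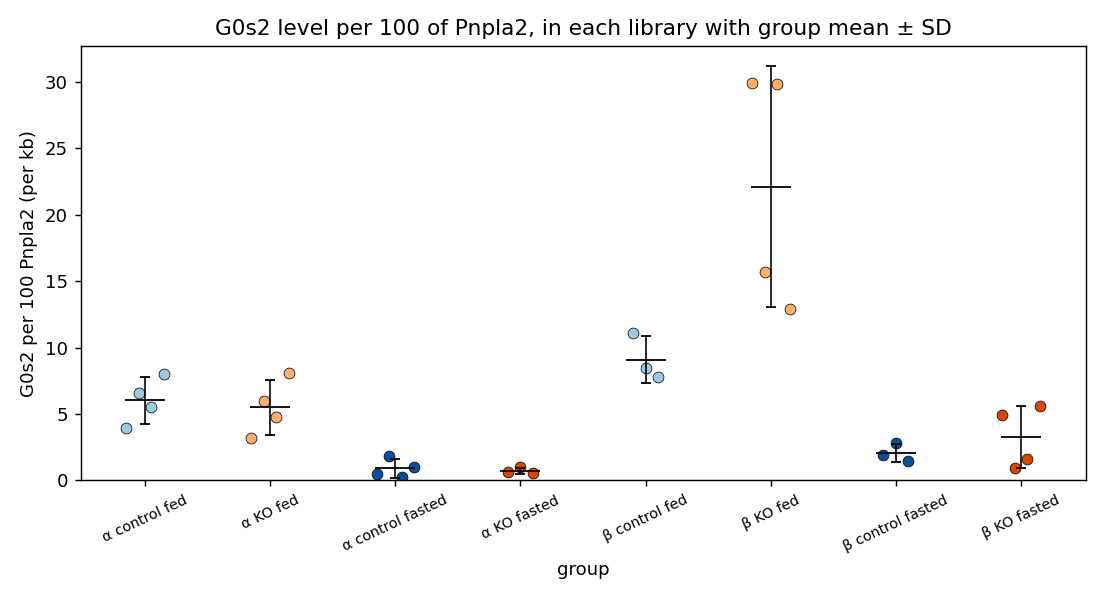
Level of G0s2 per 100 of Pnpla2, both in CPM per kilobase, in each library (points) with the group mean and SD (bars). The fasted libraries of the p110α line lie between 0.288 and 1.86 and its fed libraries between 3.21 and 8.11, and fed M-p110βKO reach 29.9.

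Of the perilipins, Plin5 rose on fasting in both lines, Plin4 and Plin3 rose in the p110β line, and Plin2 was not called. Plin5, the perilipin of oxidative tissues that ties droplets to mitochondria, read 11.7, 13.2, 14.8 and 21.3 CPM in fed and 32.8, 29.7, 32.2 and 36.3 in fasted controls of the p110α line. M-p110αKO read 11.2, 12.7, 17.3 and 22.7 CPM when fed and 42.6, 45.4 and 36.2 when fasted. In the p110β line fed controls read 7.36, 12.8 and 12.0 CPM and fasted controls 34.6, 32.2 and 43.4, while M-p110βKO read 7.67, 6.13, 6.73 and 8.16 fed and 47.7, 24.7, 60.3 and 51.3 fasted. No fed library reached a fasted one of its line and genotype. The log2 changes were 1.09 ± 0.20 (adjusted p = 0.000571), 1.37 ± 0.21 (0.000235), 1.80 ± 0.26 (6.31e-05) and 2.68 ± 0.24 (1.77e-07) in the same order, and all 4 calls held in each of the 21 other settings. In controls of the p110β line the value was 2.04 ± 0.33 without libraries 23 and 24 (adjusted p = 0.000499).

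Plin4, a perilipin of adipose tissue, heart and skeletal muscle that coats nascent droplets, read 268, 291, 461 and 745 CPM in fed controls of the p110α line, against 526, 562, 503 and 495 in fasted controls. M-p110αKO read 376, 288, 553 and 556 CPM when fed and 679, 584 and 444 when fasted. Fed and fasted groups of the p110α line overlapped, and the log2 changes were 0.24 ± 0.26 (adjusted p = 0.528) and 0.36 ± 0.28 (0.383). Without library 4, the highest fed control, the change in controls was 0.62 and passed the threshold (adjusted p = 0.0454). In the p110β line Plin4 read 95.7, 220 and 286 CPM in fed and 808, 787 and 895 in fasted controls, a change of 2.06 ± 0.27 (1.95e-05). M-p110βKO read 122, 142, 108 and 151 CPM when fed and 825, 550, 661 and 848 when fasted, a change of 2.46 ± 0.24 (4.09e-07). The change in controls was 2.17 ± 0.34 (adjusted p = 0.000341) without libraries 23 and 24.

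Plin3, a widely expressed perilipin that moves from the cytosol to new droplets, read 12.3, 10.3, 15.6 and 24.9 CPM in fed and 14.7, 13.5, 18.2 and 22.9 in fasted controls of the p110α line, a log2 change of 0.12 ± 0.25 (adjusted p = 0.765). In M-p110αKO it read 21.9, 31.5, 34.9 and 42.9 CPM fed and 49.1, 36.3 and 48.8 fasted, a change of 0.45 ± 0.25 (0.223). Controls of the p110β line read 8.57, 13.5 and 13.7 CPM fed and 20.5, 20.3 and 26.9 fasted, a change of 0.94 ± 0.26 (adjusted p = 0.0113). M-p110βKO read 12.4, 10.7, 14.3 and 9.79 CPM fed and 39.6, 22.9, 54.3 and 43.5 fasted, a change of 1.76 ± 0.22 (7.60e-06). Fed and fasted libraries were separate in both genotypes of the p110β line. The change in its controls was 1.19 ± 0.34 (adjusted p = 0.0237) without libraries 23 and 24, and without library 16 it was 0.74 (0.0686).

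Plin2, the perilipin that is found on droplets of most cells and whose protein is stable only on a droplet, was not called on fasting and was higher in the 2 libraries with adipocyte transcripts than in the third of their group. Fed controls of the p110α line read 29.6, 33.0, 30.2 and 28.6 CPM, fasted controls 24.5, 24.1, 28.7 and 27.0, fed M-p110αKO 32.6, 37.6, 26.6 and 25.5, and fasted M-p110αKO 23.1, 31.4 and 45.4. In the p110β line fed controls read 22.5, 24.8 and 26.2 CPM, fed M-p110βKO 23.6, 25.4, 26.5 and 25.0, and fasted M-p110βKO 15.7, 24.6, 21.3 and 17.8. Libraries 23 and 24 read 38.3 and 35.8 CPM and library 25, of the same group, 19.0. Plin1, the perilipin of adipocytes, read 25.7 and 22.3 CPM in libraries 23 and 24, 0.287 in library 25 and 0–2.47 in the other 26. In these bulk samples more adipocytes and more Plin1 or Plin2 RNA per cell cannot be told apart. The log2 change of Plin2 on fasting in controls of the p110β line was 0.36 ± 0.20 (adjusted p = 0.194) with all libraries, −0.35 ± 0.22 (0.293) without 23 and 24, and 0.61 (0.00704) without 25. The other changes on fasting were −0.22 ± 0.17 (adjusted p = 0.336) and 0.12 ± 0.18 (0.668) in controls and M-p110αKO of the p110α line and −0.33 ± 0.18 (0.144) in M-p110βKO.

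**Figure D3:**
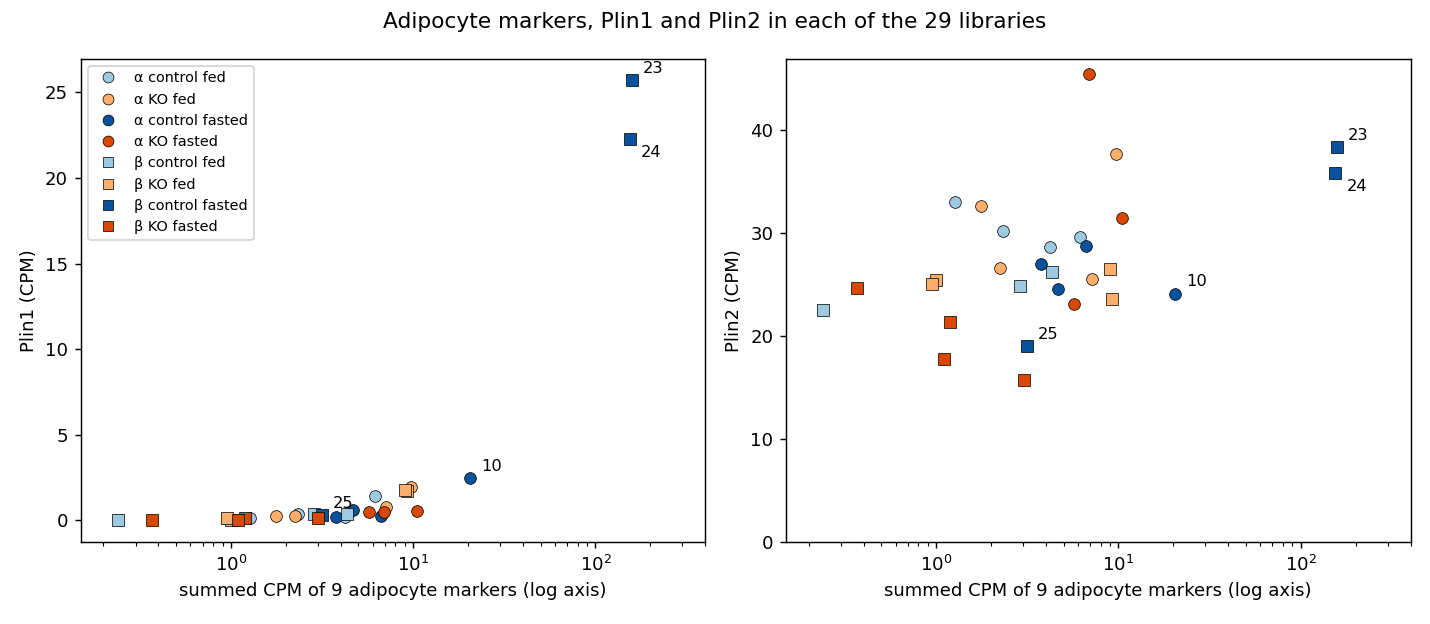
Plin1 (left) and Plin2 (right), in CPM on linear axes, against the summed CPM of 9 adipocyte markers (log axis, Plin1 among them) in each of the 29 libraries. Libraries 23 and 24 stand alone near 155 CPM of markers, with 22.3–25.7 CPM of Plin1 and 35.8–38.3 of Plin2.

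Dgat2, which makes triglyceride from newly formed diacylglycerol, rose on fasting in both lines, while Dgat1, which re-esterifies diacylglycerol in the endoplasmic reticulum, was called in 0 of 4 comparisons. Dgat2 read 18.3, 22.9, 29.8 and 34.1 CPM in fed and 42.3, 29.4, 43.3 and 49.9 in fasted controls of the p110α line, with 1 fasted library inside the fed range. Fed M-p110αKO read 24.1, 23.1, 26.7 and 35.7 CPM and fasted M-p110αKO 47.6, 46.3 and 39.5. The p110β line read 15.2, 21.3 and 16.0 CPM in fed and 81.4, 73.4 and 72.1 in fasted controls, and 17.6, 9.12, 16.1 and 11.3 in fed and 56.1, 25.9, 65.1 and 64.0 in fasted M-p110βKO, without overlap. The log2 changes were 0.65 ± 0.19 (adjusted p = 0.0158) and 0.70 ± 0.20 (0.0199) in controls and M-p110αKO, and 2.13 ± 0.27 (1.64e-05) and 1.96 ± 0.24 (7.38e-06) in controls and M-p110βKO. The call in controls of the p110α line was lost without library 1 (0.51, adjusted p = 0.0576) or 12 (0.53, 0.0566), and that in M-p110αKO without library 6, 13 or 14 (0.0631, 0.0799 and 0.0573). In controls of the p110β line the change was 2.07 ± 0.36 (adjusted p = 0.000778) without libraries 23 and 24. Dgat1 lay between 6.91 and 14.9 CPM in all 29 libraries, and its 4 changes ranged from −0.33 ± 0.17 to 0.16 ± 0.16 (adjusted p = 0.144 and 0.482).

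In counts, fasting called 3 members higher and 2 lower in controls of the p110α line, where 15.4% of all genes tested were called higher and 14.7% lower. In M-p110αKO it called 3 higher and 1 lower, against 11.6% and 9.91% of all genes. In controls of the p110β line 5 were higher and 1 lower (14.5% and 12.4% of all genes), and in M-p110βKO 5 were higher and 2 lower (19% and 18.9%). The median log2 change of the 10 members was 0.16, 0.40, 0.65 and 0.85 in these comparisons, beside 0, 0, −0.02 and −0.02 over all genes tested. Without libraries 23 and 24, controls of the p110β line had 5 members higher and 0 lower, against 9.72% and 6.52% of all genes. Summed markers of other cells of the muscle moved with some of these comparisons, though not every gene of a sum did. In M-p110αKO fed and fasted sums overlapped for fibroblast (210–493 and 219–384 CPM), macrophage (4.05–7.93 and 3.29–15.7) and endothelial markers (209–307 and 244–270). Macrophage and endothelial sums also overlapped in controls of both lines. In M-p110βKO the summed CPM of fed and fasted libraries did not overlap for 4 fibroblast markers (296–434 fed, 129–194 fasted). The same held for 6 macrophage markers (7.69–15.9 and 2.86–5.99) and 4 endothelial markers (365–412 and 210–312). In the endothelial sum Cdh5 (196–229 and 111–170) and Kdr (99.7–113 and 44.6–55.8) were lower when fasted. Pecam1 (54.8–64.7 and 42.4–69.3) and Emcn (12–14.7 and 12.2–17) overlapped. Cd68 of the macrophage sum was mostly higher when fasted (0–0.544 and 0.528–0.953). Fibroblast sums were also separate in controls, at 277–347 fed and 242–265 fasted in the p110β line. In the p110α line they went the other way, at 165–305 and 315–388. Different genes lay behind these sums. Of the 4 genes only Col3a1 was separate in controls of the p110β line (83.5–111 fed, 41.6–48.8 fasted). Only Pdgfra was separate in those of the p110α line (5.4–9.54 fed, 14.6–19.1 fasted). All of these markers were detected in each group, and their part in the results was not tested.

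**Figure D4:**
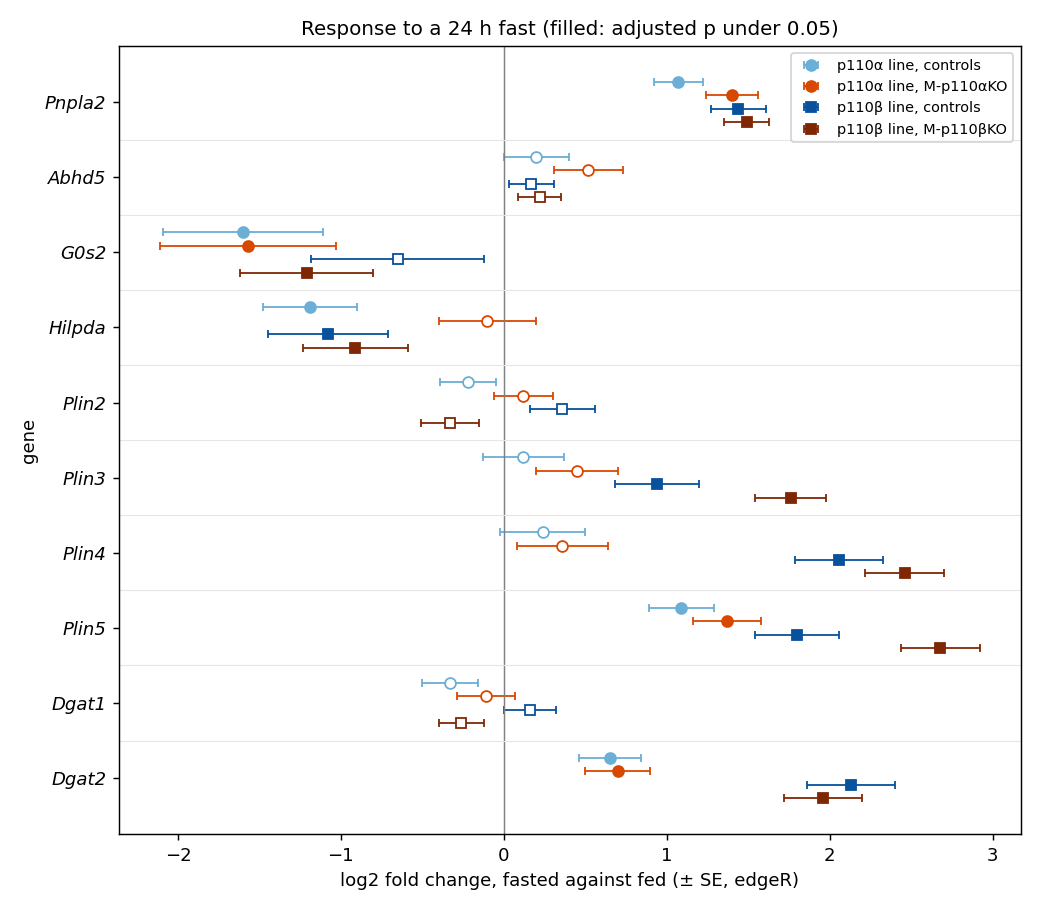
Log2 fold change (± SE, edgeR) of fasted against fed libraries for each of the 10 genes in controls and knockouts of both lines, with filled symbols for an adjusted p under 0.05. Pnpla2 and Plin5 are filled in all 4 comparisons, Plin3 and Plin4 in both comparisons of the p110β line, and Plin5 in M-p110βKO reaches 2.68.

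Loss of p110α went with more Plin3 and, in fasted muscle, more Pnpla2. Fasted M-p110αKO read 49.1, 36.3 and 48.8 CPM of Plin3 against 14.7, 13.5, 18.2 and 22.9 in fasted controls, without overlap, a log2 difference of 1.38 ± 0.26 (adjusted p = 0.00613) that held in each of 21 other settings. In fed muscle the difference was 1.05 ± 0.25 (adjusted p = 0.067), with the lowest M-p110αKO library (21.9 CPM) below the highest control (library 4, 24.9 CPM). It was called by DESeq2 (adjusted p = 0.00497), without library 4 (1.39, 0.00853) and without library 5 (1.19, 0.0337). Averaged over both states Plin3 was higher by 1.21 ± 0.18 (adjusted p = 0.000797). Pnpla2 in fasted M-p110αKO (644, 502 and 457 CPM) lay above all fasted controls (311–408 CPM), a difference of 0.60 ± 0.16 (adjusted p = 0.0283), and was 0.27 ± 0.15 (0.491) when fed and 0.44 ± 0.11 (0.0242) averaged. The call in fasted muscle was lost with the GC and length correction (0.42, adjusted p = 0.124) and without library 9, 11, 12, 13 or 14 (adjusted p = 0.0585 to 0.138), and the averaged call with the correction (0.34, 0.0612) and without library 2, 3, 11 or 13 (0.0505 to 0.0692). The study measured mRNA of lipolysis genes in TA muscle of fed and fasted mice and reported these as unchanged in M-p110αKO. Its text does not name the genes of that measurement, but its list of PCR primers includes Pnpla2, Lipe and Mgll. Its PCR values were normalized to GAPDH, so they are of another kind than the counts here.

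Of the 10 members, 0 were called in fed M-p110αKO, where 0.611% of all genes were. An unadjusted p under 0.05 was reached by 1 member (higher), and DESeq2 called 1 and limma-voom 0. In fasted M-p110αKO 2 were called, both higher, against 6.52% of all genes, and averaged over both states the same 2 against 5.49%. Hilpda in fasted M-p110αKO (1.08–1.24 CPM) did not overlap fasted controls (0.475–0.828), yet its difference of 0.87 ± 0.33 missed the threshold (adjusted p = 0.164), and Abhd5 gave 0.55 ± 0.21 (0.131). The difference between the genotype effects in fasted and fed muscle was called for 0 members in edgeR, against 0.483% of all genes, while 1 reached an unadjusted p under 0.05 and both DESeq2 and limma-voom called 0. The median difference of the members was 0.06 when fed and 0.35 when fasted, beside 0 over all genes in both. The fasted controls that enter these comparisons are the same libraries as in the comparisons of fasting.

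Loss of p110β gave no call among the members. In fed M-p110βKO edgeR called 0 of 10 members and 0% of all genes, and DESeq2 and limma-voom each called 0 members. An unadjusted p under 0.05 was reached by 1 higher and 1 lower member. These were G0s2, whose 4 values of 7.48–15.5 CPM lay above the 3 of controls (4.73–5.19) with a log2 difference of 1.20 ± 0.44 (adjusted p = 0.432), and Plin4, with −0.61 ± 0.24 (0.474) and −0.94 (0.0179) without library 16. In fasted M-p110βKO 0 members were called in edgeR, against 0.89% of all genes, while DESeq2 called 1 and limma-voom 0. An unadjusted p under 0.05 was reached by 1 higher and 2 lower members. Plin3 was the higher of these, with 0.83 ± 0.22 (adjusted p = 0.102, and 0.0372 in DESeq2), which passed without library 25 (0.98, 0.0375) and without library 27 (1.03, 0.0048) and was 0.57 ± 0.33 (0.76) without libraries 23 and 24. Plin2 was −0.64 ± 0.19 (adjusted p = 0.13) and became −0.88 (0.0012) without library 25, −0.76 (0.0445) without library 27 and 0.07 ± 0.21 (0.97) without libraries 23 and 24. Dgat2 was −0.52 ± 0.23 (adjusted p = 0.341), with all 4 libraries of M-p110βKO (25.9–65.1 CPM) below the 3 controls (72.1–81.4), and −0.46 ± 0.35 (0.82) without libraries 23 and 24. Summed fibroblast markers (129–194 against 242–265 CPM) and macrophage markers (2.86–5.99 against 6.61–8.51) were lower in fasted M-p110βKO than in fasted controls without overlap. Single genes of both sums overlapped, Dcn (78–144 against 137–183) and Cd68 (0.528–0.953 against 0.624–2.3) among them. The part of these markers was not tested.

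For the p110β knockout the difference between fasted and fed effects called 0 members in edgeR, against 0.106% of all genes, and 0 in DESeq2 and limma-voom, while 2 higher and 1 lower member reached an unadjusted p under 0.05. Its values were 0.88 ± 0.35 for Plin5 (adjusted p = 0.321), 0.82 ± 0.34 for Plin3 (0.326) and −0.69 ± 0.27 for Plin2 (0.30), the last of which was 0.03 without libraries 23 and 24 and −0.93 (0.0255) without library 25. Averaged over both states 0 members were called in edgeR, against 0.335% of all genes, and 0 in DESeq2 and limma-voom, while 2 higher and 3 lower members reached an unadjusted p under 0.05. Leaving out libraries 23 and 24 gave 0 members for fasted M-p110βKO (0.225% of all genes) and 0 for the difference and the average (0.0543% each), with Plin5 at 0.65 (adjusted p = 0.739) and Plin3 at 0.58 (0.759) for the difference.

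**Figure D5:**
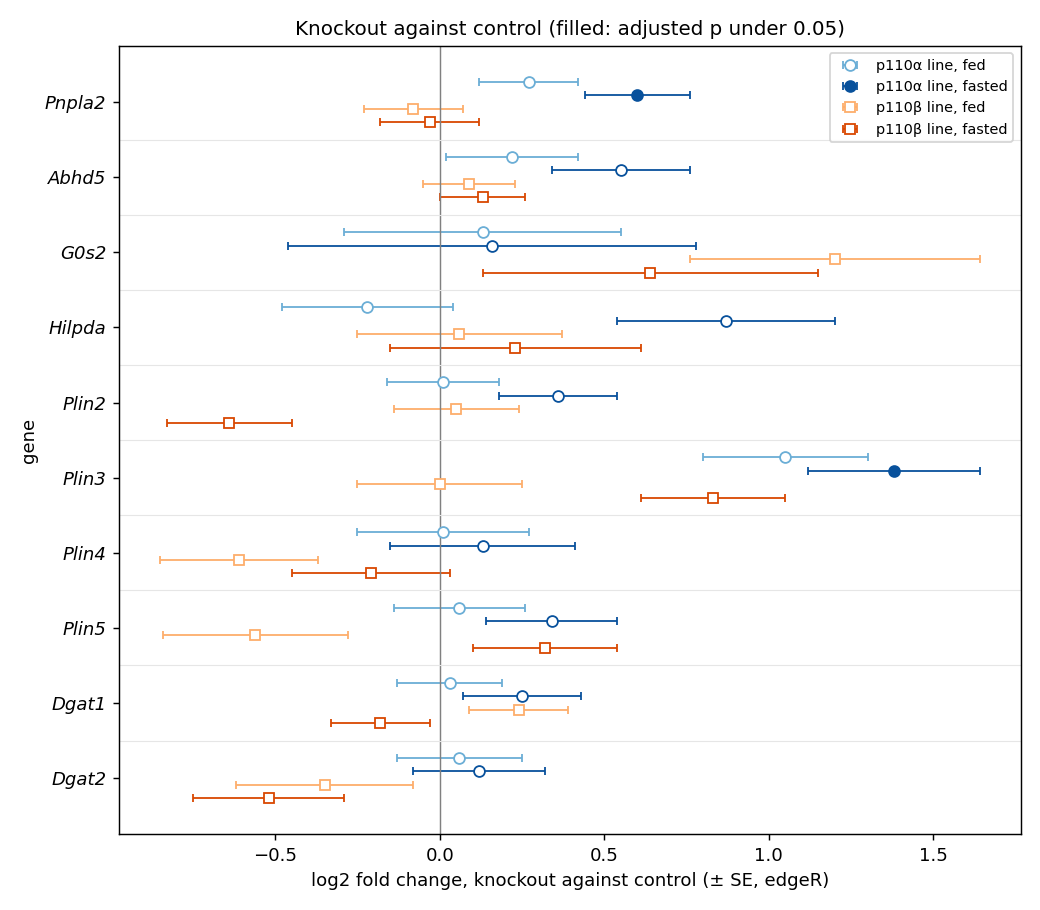
Log2 fold change (± SE, edgeR) of knockout against control for each of the 10 genes, in fed and fasted muscle of both lines, with filled symbols for an adjusted p under 0.05. The filled symbols are Plin3 (1.38) and Pnpla2 (0.60) in fasted M-p110αKO.

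Between the lines, fed controls of the p110β line had less Plin4 and more Hilpda than those of the p110α line. Plin4 read 95.7–286 CPM in the 3 and 268–745 in the 4 libraries, with overlap, a log2 difference of −1.14 ± 0.30 (adjusted p = 0.00775). Hilpda read 2.40–3.62 against 1.40–1.56 CPM, without overlap, a difference of 0.99 ± 0.29 (0.0162). These were the 2 members called, against 20.3% of all 12760 genes tested over both lines. Without library 16 both missed the threshold (−0.82, adjusted p = 0.0705, and 0.77, 0.133), and with the GC and length correction Hilpda did (0.74, 0.0646).

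The response of controls to fasting was larger in the p110β line for Plin4, by 1.81 ± 0.41 on the log2 scale (adjusted p = 0.0205), and for Dgat2, by 1.47 ± 0.35 (0.0271). These 2 members were called, against 1.56% of all genes. Both calls rest on few libraries. Without libraries 23 and 24 the differences were 1.94 ± 0.50 (adjusted p = 0.0913) and 1.42 ± 0.44 (0.174), without library 4 they were 1.43 (0.052) and 1.30 (0.0715), and without library 16 the adjusted p were 0.0723 and 0.0875. Dgat2 also missed the threshold without library 10, 23 or 24 (adjusted p = 0.0544, 0.0627 and 0.0554).

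Across the 29 libraries the members that rose on fasting went together. Pearson's r of log2 CPM was 0.92 for Plin5 with Dgat2, 0.90 for Plin5 with Plin4 and with Pnpla2, 0.88 for Plin4 with Dgat2 and −0.69 for Plin4 with Hilpda. Over the 27 libraries without 23 and 24 the values were 0.95, 0.89, 0.91, 0.87 and −0.68. Other pairs of members that rose were lower over the 29 libraries: 0.83 for Pnpla2 with Dgat2, 0.75 for Plin4 with Pnpla2, and 0.66 to 0.74 for Plin3 with Pnpla2, Dgat2, Plin4 and Plin5. All of these are descriptions over 8 groups, which share the feeding states and lines. The members were grouped by their rise in the same libraries, so a positive r follows in part from that choice. By the same measure the genes most like Plin5 were Eci2 (0.97), Slc25a34 (0.97) and Hsd17b4 (0.95). Those most like Plin4 were Ucp3 (0.95), Zbtb16 (0.94) and Synj2 (0.94). Those most like Pnpla2 were Eif4ebp1 (0.94), Hgs (0.93) and Nploc4 (0.93), and those most like Dgat2 were Tmem82 (0.94), Slc25a34 (0.93) and Plin5 (0.92). Car14 was most like Plin3 (0.86) and Zdhhc1 most like G0s2 (0.85), while Plin2 reached 0.75 at most, with Padi2.

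Other genes of the pathway are counted beside the shares of all genes called higher and lower on fasting, 15.4% and 14.7% in controls of the p110α line, 11.6% and 9.91% in M-p110αKO, 14.5% and 12.4% in controls of the p110β line and 19% and 18.9% in M-p110βKO. Of 16 other genes of triglyceride synthesis, 14 were tested. On fasting 4 rose and 3 fell in controls of the p110α line, 3 rose and 1 fell in M-p110αKO, 6 rose and 2 fell in controls of the p110β line, and 6 rose and 1 fell in M-p110βKO. Without libraries 23 and 24, 5 rose and 0 fell in controls of the p110β line. The median log2 change of the list was 0.19, 0.10, 0.21 and 0.32 in the same order. Lpin1, the phosphatidate phosphatase that supplies diacylglycerol, rose in all 4, from 692 ± 164 CPM (SD, n = 4) to 1470 ± 161 (n = 4) in controls of the p110α line (1.08 ± 0.14, adjusted p = 2.73e-05) and from 572 ± 59.1 to 1540 ± 154 (n = 4 each) in M-p110βKO (1.43 ± 0.12, 7.01e-08). Acsl1, which activates long-chain fatty acids, also rose in all 4, by 0.78 to 1.26, the highest in controls of the p110β line, where it was 0.86 (adjusted p = 0.00945) without libraries 23 and 24. Gpat3, an acyltransferase of the first step, rose in controls (1.64 ± 0.24, adjusted p = 5.50e-05, and 1.54, 0.00209, without libraries 23 and 24) and M-p110βKO (1.86 ± 0.20, 1.97e-06) of the p110β line. Acsl3, the acyl-CoA synthetase of nascent droplets, was lower in fed M-p110αKO, at 18.9 ± 4.72 against 37.8 ± 10.0 CPM (n = 4 each, −1.01 ± 0.21, adjusted p = 0.0341).

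All 10 genes of other lipases and their partners were tested, of which 1 rose and 0 fell in controls of the p110α line on fasting, 1 rose and 1 fell in M-p110αKO, and 6 rose and 0 fell in each genotype of the p110β line. In controls of the p110β line 1 of the list rose without libraries 23 and 24, against 9.72% of all genes. The medians were 0.22, 0.04, 0.63 and 0.61. Lpl, the lipase that releases fatty acids from the triglyceride of lipoproteins, rose in M-p110βKO from 444 ± 97.7 to 1650 ± 518 CPM (n = 4 each, 1.89 ± 0.24, adjusted p = 7.60e-06), and Lipe, the hormone-sensitive lipase that follows ATGL, by 0.95 ± 0.17 (0.000301). In controls of the p110β line, Lipe rose by 1.06 ± 0.19 (adjusted p = 0.000456), Fabp4 by 0.84 ± 0.17 (0.00142) and Lpl by 1.11 ± 0.27 (0.00458), while without libraries 23 and 24 the values were 0.70 (0.0601), 0.41 (0.187) and 0.70 (0.183). Pnpla3, a paralogue of Pnpla2, fell in M-p110αKO (−1.23 ± 0.32, adjusted p = 0.0106).

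Of 17 other droplet proteins, 14 were tested in the p110α line and 13 in the p110β line. On fasting 3 rose and 1 fell in controls of the p110α line, 2 rose and 0 fell in M-p110αKO, 2 rose and 1 fell in controls of the p110β line, and 2 rose and 2 fell in M-p110βKO, with medians of 0.11, 0.18, 0.05 and 0.05. Without libraries 23 and 24, 1 rose and 2 fell in controls of the p110β line. Fitm1, a protein of the endoplasmic reticulum that helps droplets form in muscle, fell in controls of the p110α line from 79.2 ± 14.3 to 42.0 ± 2.31 CPM (n = 4 each, −0.92 ± 0.15, adjusted p = 0.000179), and in controls (−0.66 ± 0.14, 0.00221, and −0.92, 0.00568, without libraries 23 and 24) and M-p110βKO (−0.93 ± 0.12, 1.65e-05) of the p110β line. In fasted M-p110αKO Fitm1 was higher than in fasted controls, at 83.9 ± 18.6 CPM (n = 3) against 42.0 ± 2.31 (n = 4), a difference of 1.01 ± 0.16 (adjusted p = 0.00193, and 0.0181 with the GC and length correction). Plin1 rose in controls of the p110β line by 6.10 ± 1.12 (adjusted p = 0.000607) with all libraries and by 0.36 (0.922) without 23 and 24. It was also the 1 droplet protein called lower in fasted M-p110βKO (−7.54 ± 1.19, adjusted p = 0.00555), and without those libraries it was −1.79 (0.891). Genotype otherwise called at most 1 gene of any of these lists in a single state: Acsl3, Agpat3 (0.35 ± 0.09, adjusted p = 0.0318, in fasted M-p110αKO, and 0.143 with the GC and length correction) and Fitm1.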

How the data were processed

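RNA of TA muscle was extracted with Trizol and made into libraries with an NEBNext mRNA kit. The authors aligned reads to GRCm38 with STAR and counted them per gene with featureCounts of Subread. Of versions, strand setting and treatment of reads with several matches, the sources used here name none. The values deposited are raw counts per gene for 29 libraries (5351935–11653239 assigned reads). Within groups, 39 pairs of libraries gave chi-square per degree of freedom of 3.64–28, so none is a copy.

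Symbols, positions and exon lengths came from GENCODE M21. Each line was fitted on its own, and both together for contrasts between lines, with 1 coefficient per group in edgeR 4.0.16 (R 4.3.3; filterByExpr with min.count 10 and min.total.count 15, TMM, quasi-likelihood F test), with p adjusted over all genes tested. Alternatives were DESeq2 size factors, a filter of 1 read in all, a filter of 1 CPM in 3 libraries, DESeq2 1.42.0, limma-voom (limma 3.58.1), GC content and exon length corrected by splines of 5 degrees of freedom, known for 99.7% of genes, each library left out, and libraries 23 and 24 left out. All 10 members are named, with at most 3 genes per other list and comparison and genes from the 3 of highest r per member (for Hilpda this is not reported here). Members, lists and the omission of libraries 23 and 24 were chosen with earlier results of these data known. The scripts were tested on simulated data. For 4 against 4 fed libraries of the p110α line, edgeR called 26.9% of genes changed 1.5-fold and 82.1% of those changed 2-fold. The changed genes were drawn from those with a mean of at least 2 CPM, and groups of 3 libraries were not simulated. In the p110α line the group means of Hilpda (0.64–1.47 CPM) lay below that level and those of G0s2 (0.964–3.31 CPM) around it. A gene that was not called may thus have changed moderately, and recovery below that level was not measured.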

Additional observations from a re-analysis of the deposited data

Results flagged for a closer look

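Hilpda in library 6 of fed M-p110αKO read 1.68 CPM, beside 1.07–1.13 in the other 3 libraries of its group, a gap of 0.896 of the range of the group. It was the single library that stood apart among the 50 groups of 4 libraries examined, of which chance alone marks about 1 in 20. The counts of Hilpda were 5–30 per library.

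The response of controls to fasting differed between the lines for Plin4, by 1.81 on the log2 scale, and for Dgat2, by 1.47, both larger in the p110β line by the test of the difference itself. The line, its genetic background and its floxed gene cannot be told apart, and without libraries 23 and 24, without library 4 or without library 16 neither difference passed the threshold.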

How the results depend on the processing

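Of the counts of members called, those of fasting in controls of both lines and in M-p110βKO, and the 0 of the p110α interaction, stayed within 1.5 times under the alternatives run. With no filter beyond 1 read, 1 member was called in fed M-p110αKO (1.68% of all genes tested), 2 in fed (0.884%) and 3 in fasted M-p110βKO (2.19%), 2 for the p110β interaction (1.49%), 4 for the p110β average (1.73%) and 4 for the difference of fasting responses between lines (2.56%). DESeq2 called 1 in fed M-p110αKO (1.59% of all genes) and 1 in fasted M-p110βKO (1.41%). The GC and length correction left 1 call in fasted M-p110αKO (2.86%) and 1 in the average (3.98%). Without libraries 23 and 24 there were 0 calls for the difference of fasting responses (0.319%). With 1 library left out, the count ranged from 0 to 1 in fed M-p110αKO (0.13% to 0.683% of all genes), 1 to 2 in fasted M-p110αKO (1.71% to 8.43%) and in the average (2.94% to 6.54%), 2 to 5 for fasting in M-p110αKO (13.1% to 23.8%), 0 to 1 in fed (0% to 0.562%) and 0 to 2 in fasted M-p110βKO (0.201% to 3.12%), 0 to 1 for the p110β interaction (0% to 1.12%) and average (0.032% to 1.41%), 0 to 3 for fed controls of both lines (10.9% to 21.2%) and 0 to 2 for the difference of fasting responses (0.429% to 3.35%).

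Among values that had not passed the threshold, the sign turned for Plin3 on fasting in controls of the p110α line (−0.04 without library 2 and −0.06 without library 12, with a range of −0.06 to 0.46 over left-out libraries), for Plin2 (−0.18, range −0.18 to 0.32) and Dgat1 (0.01, range −0.39 to 0.01) on fasting in M-p110αKO without library 15, and for Dgat1 on fasting in controls of the p110β line without libraries 23 and 24 (−0.01). With the GC and length correction Hilpda on fasting in M-p110αKO was 0.05, and without library 6 it was 0.08. Without libraries 23 and 24 Plin2 was 0.07 in fasted M-p110βKO, −0.35 on fasting in controls and 0.03 for the interaction. No called value given here turned. Lengths of the longest transcript raised the per-kilobase levels of Plin2 to 14.7, Abhd5 to 15.2, Dgat1 to 5.79 and Dgat2 to 9.95 CPM. Depth limits G0s2 and Hilpda most. The labels give each library its own number, so no pairing of libraries was analysed.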

Other observations

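Within groups, several members were high or low in the same library, a pattern chosen after the values were seen. Library 4 held the highest level of its group, fed controls of the p110α line, for Pnpla2 (220 CPM), Plin3 (24.9), Plin4 (745), Plin5 (21.3), G0s2 (5.09) and Dgat2 (34.1), and the lowest for Abhd5 (32.8), Plin2 (28.6) and Dgat1 (9.05). It was also the deepest library, with 11653239 assigned reads. Library 16 held the lowest level of the 3 fed controls of the p110β line for Pnpla2 (162 CPM), Plin2 (22.5), Plin3 (8.57), Plin4 (95.7), Plin5 (7.36), Abhd5 (39.5) and Dgat2 (15.2), and the highest for Hilpda (3.62) and G0s2 (5.19). Library 27 held the lowest level of fasted M-p110βKO for Pnpla2 (351 CPM), Plin3 (22.9), Plin4 (550), Plin5 (24.7), Dgat1 (9.09), Dgat2 (25.9) and G0s2 (0.983), and the highest for Plin2 (24.6) and Abhd5 (61.9).

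Among the perilipins the per-kilobase share of Plin3 was 4.36 ± 0.514% (SD, n = 4) in fed controls and 8.62 ± 1.90% (n = 4) in fed M-p110αKO, and 3.89 ± 1.00% (n = 4) and 8.57 ± 1.98% (n = 3) in fasted muscle. The share of Plin5 was 9.46 ± 1.15% in fed and 13.3 ± 3.26% in fasted M-p110βKO (n = 4 each), and 10.7 ± 1.86% in fed and 9.94 ± 0.934% in fasted controls of that line (n = 3 each, with library 25 at 11.0%). In the p110α line it was 7.93 ± 1.24% in fed and 13.3 ± 1.31% in fasted controls (n = 4 each). The summed per-kilobase level of the 4 perilipins was 36.3 ± 2.88 CPM in fed and 163 ± 30.5 in fasted M-p110βKO (n = 4 each), 50 ± 19.3 in fed and 176 ± 10.8 in fasted controls of that line (n = 3 each, with library 25 at 188), and 96.5 ± 41.5 in fed and 118 ± 2.94 in fasted controls of the p110α line (n = 4 each).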
